A study of Mus musculus with 4 samples.

Results

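To study whether related genes made up for the loss of CREPT, the levels of 7 genes that read or act on the tail of RNA polymerase II were compared between wild-type (WT) and CREPT-deleted intestinal crypts. The genes were Rprd1b, which encodes CREPT, its paralogs Rprd1a and Rprd2, and Scaf4, Scaf8, Pcf11 and Rpap2. The list holds genes for proteins with a CTD-interacting domain and a direct partner of theirs, and its members were found among the 53845 genes and loci of the count table through their Ensembl identifiers and the symbols of GENCODE M21. All 7 were among the 17504 genes with enough counts to be tested. RNA was measured by RNA-seq in crypts, the epithelial pits that hold the stem cells, which were released with EDTA from intestines of C57BL/6 mice.

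The WT group had 2 libraries, from mice that kept CREPT. The Vil-CREPTKO group had 2 libraries, from mice in which villin-cre was combined with floxed CREPT, so that exon 3 of Rprd1b was removed from the intestinal epithelium. The villin promoter drives Cre in epithelial cells from fetal life on and not in stromal, immune or vessel cells, which keep the gene. The study's methods give an age of 6 to 8 weeks and both sexes for its mice without an age for each library. The study bred its knockout mice by mating CREPT fl/fl mice with and without villin-cre, whose pups without Cre would be CREPT fl/fl, but it does not tie this mating to the sequenced WT mice, which the labels call wildtype. The labels name no treatment or injury for any of the 4 libraries.

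RNA polymerase II carries a long tail of repeated heptapeptides, the C-terminal domain or CTD, whose phosphorylation changes as the enzyme starts, elongates and terminates. Proteins with a CTD-interacting domain bind the phosphorylated tail and bring other factors to the elongating enzyme. CREPT binds the tail together with RPRD1A and helps to bring the phosphatase RPAP2 to it, and in the intestine it has been studied as a partner of β-catenin in Wnt signaling.

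The deleted piece of Rprd1b is shown first, because it sets what a count of this gene can say. Rprd1b (ENSMUSG00000027651) lies on the plus strand at chr2:158028497-158132297 (GRCm38). The coding transcript that GENCODE marks as principal, Rprd1b-202, has 7 exons and 4504 bases. Exon 3, at chr2:158043406-158043539, has 134 bases, which is 2.98% of that transcript and 2.06% of all exon bases of the gene. Of 8 annotated transcripts, 7 hold bases of exon 3. The 134 bases leave a remainder of 2 when divided by 3, so a transcript without the exon changes its reading frame. In such a transcript 93 whole codons of the normal frame are followed by 19 codons out of frame, and a stop is met after 112 codons in place of 325. That stop lies in exon 4, at chr2:158047919-158048028, and 3 further exons with 3581 bases follow exon 4. The sequences below are exon 3, all of which is removed, and exon 4, where the capitals mark the early stop codon. Both were read from the GENCODE M21 transcripts, plus strand.
Rprd1b exon 3: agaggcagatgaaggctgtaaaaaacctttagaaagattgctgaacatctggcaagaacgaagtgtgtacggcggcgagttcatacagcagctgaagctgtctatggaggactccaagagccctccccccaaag
Rprd1b exon 4: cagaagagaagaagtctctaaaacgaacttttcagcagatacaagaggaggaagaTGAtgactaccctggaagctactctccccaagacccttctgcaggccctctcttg

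The libraries were compared before the genes. Where a pair of values is given below, replicate 1 stands first. Total counts ran from 47241049 to 49369315. Levels are given in CPM, counts scaled to the library total after TMM scaling. Vil1, whose promoter drives the Cre, had 61386 to 105968 counts in the 4 libraries, with a log2 fold change of -0.37 (edgeR adjusted p 0.569). The 6 epithelial markers, among them Epcam and Krt8, summed to 7148 to 8534 CPM. Vil-CREPTKO replicate 1 stood apart, with 10.2% mitochondrial counts against 6.75% to 7.62% in the other libraries, 13285 CPM over 5 villus enterocyte markers against 6762 to 8965, and 17.6 CPM over 6 stromal markers against 2.04 to 5.83. Of the 5 villus markers, Ada and Fabp1 were higher in both Vil-CREPTKO libraries without overlap, an order seen in 21.0% of all genes. Their log2 fold changes were 0.97 and 0.73, with adjusted p values of 0.0695 and 0.325 in edgeR and 6.75e-05 and 0.0263 in DESeq2. The groups overlapped in Alpi, Apoa1 and Apoa4, at 0.095, 0.50 and -0.61. Vil-CREPTKO replicate 1 was also the lowest over 5 crypt base and cycling markers, at 1641 CPM against 1975 to 2304. Of these 5, the stem cell marker Lgr5 was at 18.7 and 18.2 CPM in the WT pair, then 11.0 and 17.5 CPM in the Vil-CREPTKO pair. Lgr5 was lower without overlap, an order seen in 24.2% of all genes, but did not pass the test (log2 fold change -0.38, adjusted p 0.501 in edgeR). The groups overlapped in Olfm4, Ascl2, Mki67 and Top2a, with log2 fold changes of -0.16, 0.0023, -0.052 and -0.0072. Without Vil-CREPTKO replicate 1 the log2 fold change of Rprd1b was -1.08. The stromal sum of Vil-CREPTKO replicate 2, at 2.04 CPM, was below that of both WT libraries. The 8 immune markers summed to 218 and 150 CPM in the WT pair, then 160 and 126 CPM in the Vil-CREPTKO pair, the 3 endothelial markers to 1.73 to 2.95 CPM, and the 4 smooth muscle markers were near 0, at 0.092 to 0.366 CPM, with 0 to 2 counts of Acta2. The part of these other cells, and of the make-up of the crypt cells, in the Rprd1b counts of Vil-CREPTKO was not tested. WT replicate 2 was the one library with high Xist, at 42463 counts against 13 to 26, and the one without Y-linked counts. Without it the log2 fold change was -1.13 for Rprd1b and -0.96 for Rprd1a.

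Rprd1b was lower in Vil-CREPTKO crypts, and of the 7 genes it was the one that passed the test. WT replicates 1 and 2 held 3087 and 3030 counts of it, and Vil-CREPTKO replicates 1 and 2 held 1142 and 1424. Both Vil-CREPTKO libraries were below both WT libraries, and the WT pair was closely matched. The level fell to 45.3% of WT (95% interval 37.4% to 54.9%), a log2 fold change of -1.14 (SE 0.12) at an adjusted p of 0.0041 in the quasi-likelihood test of edgeR. Exon 3 makes up 2.98% of Rprd1b-202, and reads were counted by gene and not by exon, so the remaining 45.3% does not tell how many transcripts still held the exon. Reads of Tgm2, which overlaps Rprd1b on the other strand, may also have been counted as Rprd1b, which was not tested. In bulk RNA, fewer cells of a type and less RNA per cell cannot be told apart.

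Among all genes tested, 2.71% had an adjusted p under 0.05 in either direction and 2.29% were lower. In the set of 7, 1 was called lower and 0 higher. At an unadjusted p under 0.05, which 9.76% of all genes reached on the lower side, 2 of the 7 were lower and 0 higher. DESeq2 called 2 of the 7 at an adjusted p under 0.05, beside 5.12% of all genes. Both Vil-CREPTKO libraries lay below both WT libraries for 2 of the 7, an order seen in 24.2% of all genes, and above them for 1, beside 21.0%. The median log2 fold change of the 7 was 0.029, beside -0.0060 for all genes tested. Of the 7 genes, 3 had a log2 fold change under 0 and 4 over 0. All these counts include Rprd1b, the deleted gene. Of the 6 genes without it, 0 were called by edgeR and 1 by DESeq2. At an unadjusted p under 0.05, 1 of the 6 was lower and 0 higher, and their median log2 fold change was 0.053.

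**Figure D1:**
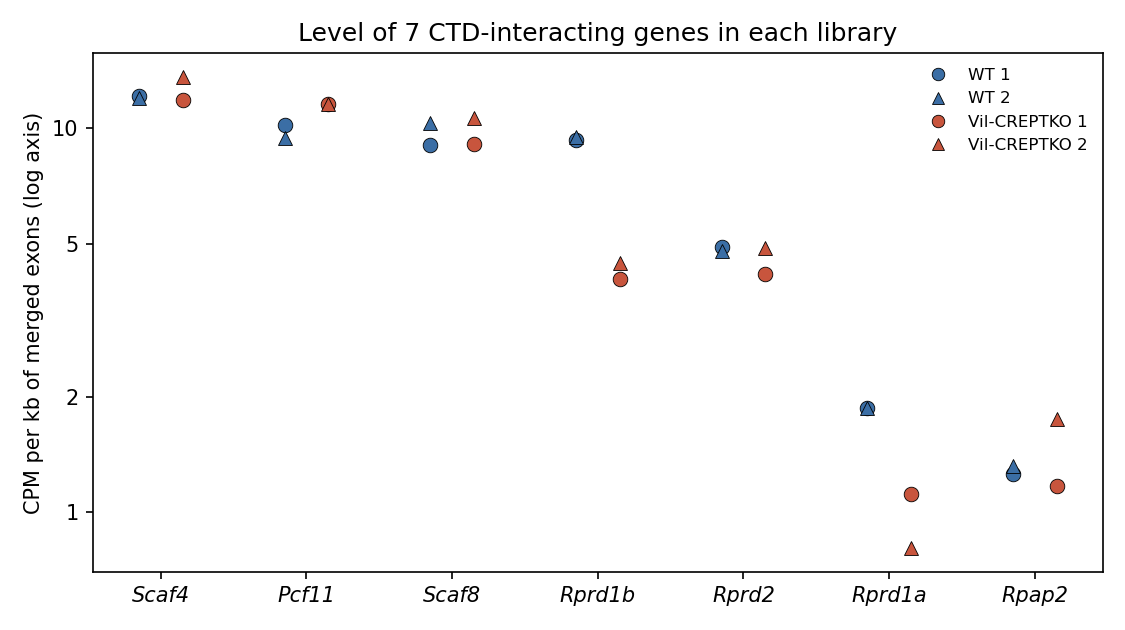
Level of each of the 7 genes in each library, in CPM per kb of merged exons on a log axis, with the genes in order of their mean in WT. WT libraries are blue and Vil-CREPTKO libraries red, and circles and triangles are replicates 1 and 2. Rprd1b and Rprd1a lie lower in both Vil-CREPTKO libraries, Pcf11 lies slightly higher in both, and the groups overlap in the other 4 genes.

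Rprd1a was the gene of greatest interest, since its protein is the closest relative of CREPT. The longest coding sequences of Rprd1b and Rprd1a, translated, were identical at 68.6% of 312 aligned residues, against 29.2% of 308 for Rprd1b and Rprd2. The longest stretch shared without a mismatch by transcripts of Rprd1b and Rprd1a was 20 bases. Rprd1a (ENSMUSG00000040446, chr18:24484960-24530204, minus strand) had 616 and 595 counts in WT replicates 1 and 2, against 314 and 256 in the Vil-CREPTKO replicates of those numbers. The groups did not overlap, with both Vil-CREPTKO libraries low.

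The WT mean of Rprd1a was 12.1 ± 0.0159 CPM and the Vil-CREPTKO mean 6.22 ± 1.42 CPM (SD, n = 2 each). This was 51.5% of WT (95% interval 37.0% to 71.5%), or a log2 fold change of -0.96 (SE 0.21). Its edgeR adjusted p, 0.0526, lay just over the threshold of 0.05, so Rprd1a was not called. The call turned on the setting: it passed in 6 of 14 alternatives, with adjusted p values from 0.000925 to 0.145, and in all 14 the log2 fold change was under 0, from -1.22 to -0.74. The spread came from Vil-CREPTKO: without replicate 1 the value was -1.22 (edgeR adjusted p 0.0354), and without replicate 2 it was -0.74 (edgeR adjusted p 0.145).

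**Figure D2:**
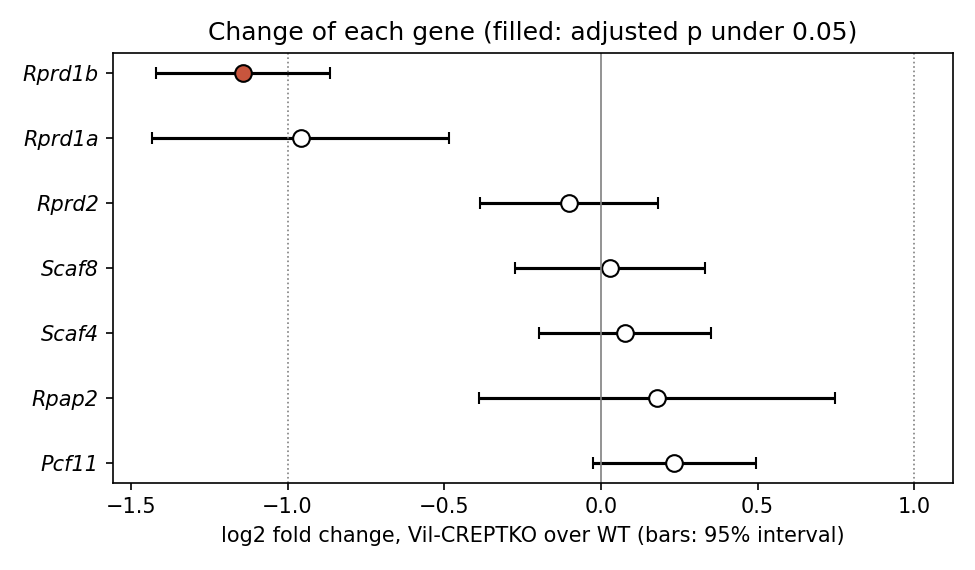
Log2 fold change of each of the 7 genes, Vil-CREPTKO over WT, with bars for the 95% interval and dotted lines at a change of 1 on the log2 scale in each direction. Rprd1b (filled, adjusted p under 0.05) and Rprd1a have intervals wholly under 0, and the intervals of the other 5 genes cross 0.

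To ask how far Rprd1a could have filled the gap, both genes were put on a scale per length, as CPM per kb of merged exons. Rprd1b stood at 9.30 and 9.47 CPM per kb in the WT libraries and Rprd1a at 1.87 in each. Rprd1a thus gave 16.7% and 16.5% of the sum of both in WT, and 21.6% and 15.3% in Vil-CREPTKO replicates 1 and 2. The summed level of the WT libraries was 11.2 and 11.3 CPM per kb, and that of the Vil-CREPTKO libraries 5.16 and 5.27. The sum in Vil-CREPTKO was therefore 46.3% ± 0.679 (SD, n = 2) of the WT mean, beside 45.3% for Rprd1b alone. Rprd1b lost 5.14 CPM per kb. To restore the WT sum on this scale, Rprd1a would have had to reach 3.75-fold of its WT level, a log2 change of 1.91, whereas the upper bound of its interval was -0.48. The sums, the shares and the 3.75-fold take in all remaining Rprd1b counts, whether or not their transcripts still held the deleted exon. They are thus levels of RNA by gene, and not of transcripts able to encode full-length CREPT. If part of the remaining Rprd1b lacked the exon, the rise of Rprd1a needed to replace full-length transcripts would have been larger. Levels of protein were not measured here.

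**Figure D3:**
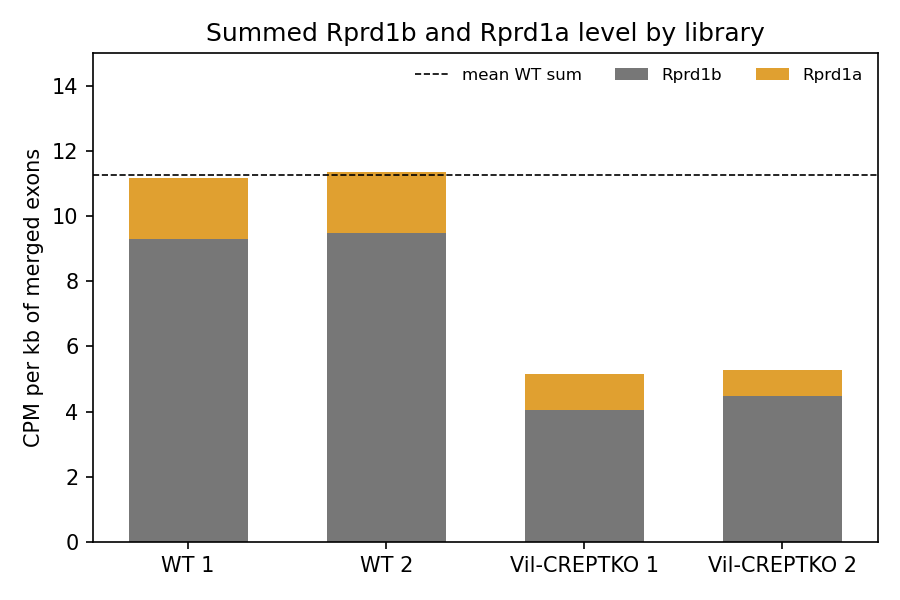
Summed level of Rprd1b (grey) and Rprd1a (orange) in each library, in CPM per kb of merged exons, with the mean WT sum dashed. The sum is 11.2 and 11.3 in the WT bars, 5.16 and 5.27 in the Vil-CREPTKO bars, and the orange share is a minor part in every library.

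Rprd2 encodes the larger, more distant member of the RPRD family. Rprd2 (ENSMUSG00000028106, chr3:95760341-95818863, minus strand) had 2853 and 2690 counts in the WT pair, then 2065 and 2722 in the Vil-CREPTKO pair. The groups overlapped, with Vil-CREPTKO replicate 1 the lowest. The log2 fold change was -0.10 (SE 0.12, 95% interval -0.39 to 0.18, edgeR adjusted p 0.786). The interval did not reach a 2-fold change in either direction, but it does not show that the level was unaltered, and its sign turned without Vil-CREPTKO replicate 1.

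SCAF4 and SCAF8 are paired factors that bind the CTD and keep the polymerase from ending transcripts at early polyadenylation sites. Their translated coding sequences were identical at 47.8% of 1055 aligned residues. Scaf4 (ENSMUSG00000022983, chr16:90225680-90284503, minus strand) had 3433 and 3265 counts in the WT pair, then 2843 and 3705 in the Vil-CREPTKO pair, with a log2 fold change of 0.077 (SE 0.12, 95% interval -0.20 to 0.35, edgeR adjusted p 0.847). Scaf8 (ENSMUSG00000046201, chr17:3114972-3198859, plus strand) had 2717 and 2983 counts in the WT pair, then 2325 and 3075 in the Vil-CREPTKO pair, with a log2 fold change of 0.029 (SE 0.13, 95% interval -0.27 to 0.33, edgeR adjusted p 0.954). In both genes the groups overlapped and the 2 Vil-CREPTKO libraries lay further apart than the difference between the group means.

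PCF11 binds the CTD near the ends of genes and acts in cleavage of the transcript and in termination. Pcf11 (ENSMUSG00000041328, chr7:92643543-92669934, minus strand) was at 79.6 and 73.9 CPM in the WT pair, then 90.2 and 90.3 CPM in the Vil-CREPTKO pair. It was the one gene of the 7 with both Vil-CREPTKO libraries above both WT libraries. The log2 fold change was 0.23 (SE 0.11, 95% interval -0.027 to 0.49), with an adjusted p of 0.41 by edgeR, so it did not pass. At its mean of 76.7 CPM in WT, this was the gene of the 7 with the highest CPM.

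RPAP2 has no CTD-interacting domain and is here as a partner: it is a CTD phosphatase that RPRD proteins bind, and it also takes part in bringing the polymerase into the nucleus. Rpap2 (ENSMUSG00000033773, chr5:107597373-107661838, plus strand) had 266 and 269 counts in the WT pair, then 211 and 355 in the Vil-CREPTKO pair. The Vil-CREPTKO libraries lay on either side of the WT pair. With the fewest counts of the 7 in WT, it had the widest interval, from -0.39 to 0.75 around a log2 fold change of 0.18 (SE 0.25, adjusted p 0.817 in edgeR).

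Compared per length, the order of the 7 genes in WT was Scaf4 (12.0 CPM per kb of merged exons), Pcf11 (9.80), Scaf8 (9.66), Rprd1b (9.39), Rprd2 (4.85), Rprd1a (1.87) and Rpap2 (1.29). The libraries of Pcf11, Scaf8 and Rprd1b overlapped, so these 3 neighbours cannot be ordered. In Vil-CREPTKO the order was Scaf4 (12.7), Pcf11 (11.5), Scaf8 (9.86), Rprd2 (4.51), Rprd1b (4.25), Rpap2 (1.46) and Rprd1a (0.962), and the libraries of Rprd2 and Rprd1b overlapped. Rprd1b thus went from a level 5.03 times that of Rprd1a to one 4.42 times it, by group means. The single Vil-CREPTKO libraries, at 3.62 and 5.54, lay on either side of the WT libraries, at 4.99 and 5.07. The place of Rprd1b in WT depended on the length used, and it was second of the 7 per kb of the longest coding transcript.

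The wider machinery of the CTD was followed in 8 lists of 71 genes, all of them tested. One of these lists holds 4 partners or targets of CREPT that are not themselves CTD machinery. Of the 71, 1 was lower and 0 higher, beside 2.29% and 0.423% of all genes, and the median log2 fold change was 0.086. The one gene called was Ctdsp1, in the list of CTD phosphatases, where 1 of 6 fell, 0 rose and 5 did not pass.

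Ctdsp1 encodes a small CTD phosphatase. It lies near Vil1 (chr1:74409376-74435559, plus strand), the gene whose promoter drives the Cre. Whether this position had a part in the change of Ctdsp1 was not tested. Ctdsp1 (ENSMUSG00000026176, chr1:74391509-74397285, plus strand) was at 118 and 124 CPM in the WT pair, then 78.5 and 76.4 CPM in the Vil-CREPTKO pair, with no overlap. It fell to 63.9% of WT, a log2 fold change of -0.65 (SE 0.12, adjusted p 0.0259 in edgeR). Its relative Ctdspl had 2278 and 1950 counts in the WT pair, then 1294 and 1575 in the Vil-CREPTKO pair, with a log2 fold change of -0.45 and an edgeR adjusted p of 0.131. The call of Ctdsp1 held in 9 of 14 alternatives. It was lost whichever library was left out, at edgeR adjusted p values of 0.0539 to 0.115, and after correction for GC content and length, at 0.337.

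In the other lists 0 genes passed in either direction. The 13 subunits of RNA polymerase II had a median log2 fold change of 0.17, with 11 over 0 and 8 whose Vil-CREPTKO libraries both lay above both WT libraries, an order found in 21.0% of all genes. Their furthest values were 0.28 for Polr2l and 0.23 for Polr2b, with edgeR adjusted p values of 0.433 and 0.451. The 12 CTD kinases and cyclins had a median of 0.063. Cdk9, the kinase of the elongation factor P-TEFb, was furthest at 0.29 with an unadjusted p of 0.0464 and an adjusted p of 0.337 by edgeR, followed by its cyclin partner Ccnt2 at 0.23.

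The 5 RPAP and GPN factors, which help to assemble the polymerase, had a median of 0.11 and were led by Rpap3 at 0.22 and Gpn3 at 0.12. The 14 subunits of Integrator, the complex that cleaves nascent RNA near promoters, had a median of 0.056, and the furthest were Ints1 at -0.27 and Ints6 at -0.25. The 15 partners of PCF11 at the 3′ end had a median of 0.030. The furthest of them were Cpsf4 at -0.20 and Cpsf3, which encodes the cleaving nuclease, at 0.18. Cherp and U2surp, other genes for proteins with a CTD-interacting domain, stood at 0.0040 and 0.040. Among 4 partners or targets of CREPT that the study names, the cyclin genes Ccnd1 and Ccnb1 had log2 fold changes of 0.32 and 0.043, Tcf7l2 0.14 and Ctnnb1 0.049. None of these genes passed the test.

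**Figure D4:**
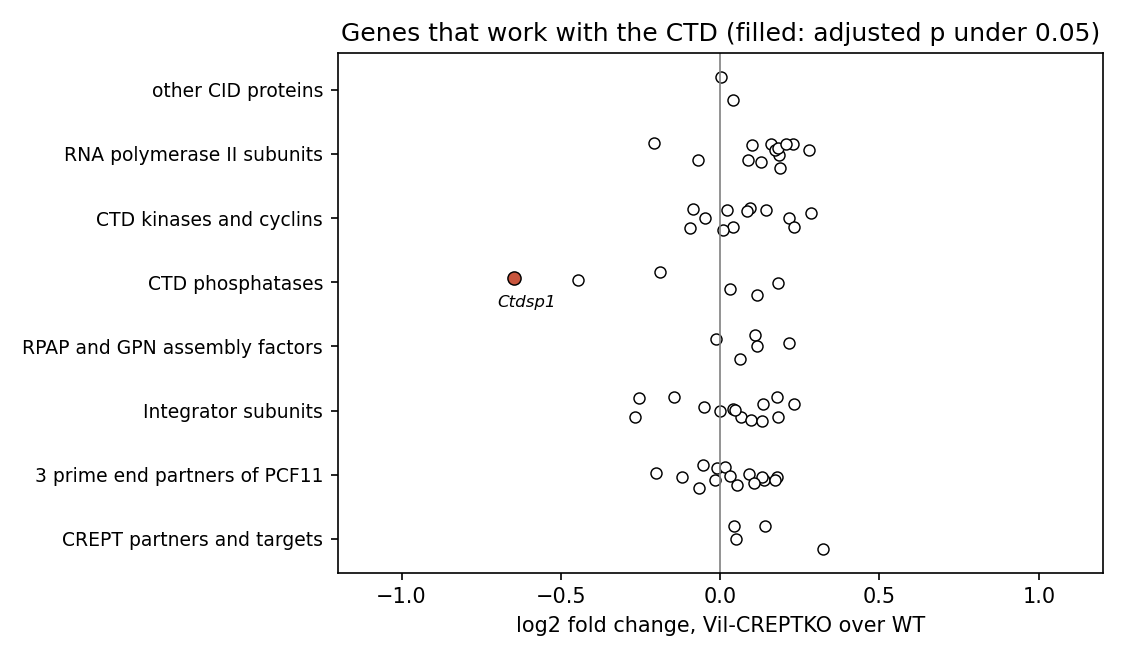
Log2 fold change, Vil-CREPTKO over WT, of the 71 genes in the 8 lists, with 1 circle for each gene and a filled circle for an adjusted p under 0.05. Ctdsp1 is the filled circle, at -0.65, and the other 70 genes lie between -0.45 and 0.32.

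The floxed allele lies among other genes on chromosome 2, so the genes around it were examined. Of 39 genes in the table with a base within 500 kb of Rprd1b, 15 were tested. None was called by edgeR or DESeq2, beside 2.71% and 5.12% of all genes. DESeq2 gave no adjusted p for 2010009K17Rik, Platr27 and Lbp, so it could not call them. At an unadjusted p under 0.05 in edgeR, 1 of the 15 was lower and 1 higher, beside 1709 lower and 786 higher of all 17504 genes tested. The 15 neighbours had a median log2 fold change of -0.021, beside -0.0060 for all genes tested. Within 1000 kb, 26 genes were tested and 0 called, with 2 lower and 1 higher at an unadjusted p under 0.05.

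The nearest neighbour is Tti1, a co-chaperone gene that runs away from Rprd1b on the other strand, with its first base 64 bases from the first base of Rprd1b. The 63 bases between them are given because both genes start at this stretch. It was read from RefSeq promoter sequence (GRCm38.p6) on the plus strand, at chr2:158028434-158028496, and capitals mark CpG. It holds 8 CpG at 61.9% GC, and 13.1% of 32851 RefSeq promoters had as many in the 63 bases before their start.
Gap between Tti1 and Rprd1b: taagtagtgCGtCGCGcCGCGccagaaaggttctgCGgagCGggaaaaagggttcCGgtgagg

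Tti1 had 1202 and 1097 counts in the WT pair, then 867 and 1110 in the Vil-CREPTKO pair, with overlapping groups, and a log2 fold change of -0.11 (SE 0.14, adjusted p 0.812 in edgeR). Tgm2, a transglutaminase gene that ends inside Rprd1b and shares 370 exon bases with it on the other strand, had a log2 fold change of -0.25 (edgeR adjusted p 0.549). Vstm2l, whose start lies 114 kb before that of Rprd1b, had 236 and 210 counts in the WT pair, then 327 and 325 in the Vil-CREPTKO pair, for a log2 fold change of 0.67 (SE 0.21) that did not pass, with an unadjusted p of 0.0128 and an adjusted p of 0.176 by edgeR.

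The noncoding gene 2010009K17Rik lies within Rprd1b on the other strand and shares 130 of its 567 exon bases with it. It had 20 and 12 counts in the WT pair, then 1 and 0 in the Vil-CREPTKO pair, levels at or under 3 counts in both Vil-CREPTKO libraries. Its edgeR adjusted p was 0.0893. It passed under 3 of the alternatives, and no fold is given as the counts are too low. Whether counting used the strand is not stated, so reads of this gene and of Rprd1b cannot be told apart where they overlap. The same holds for Tgm2, with 4795 and 5713 counts in the WT pair, then 3439 and 4813 in the Vil-CREPTKO pair. The part of Tgm2 reads in the 45.3% left of Rprd1b, and in its sums with Rprd1a, was not tested.

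**Figure D5:**
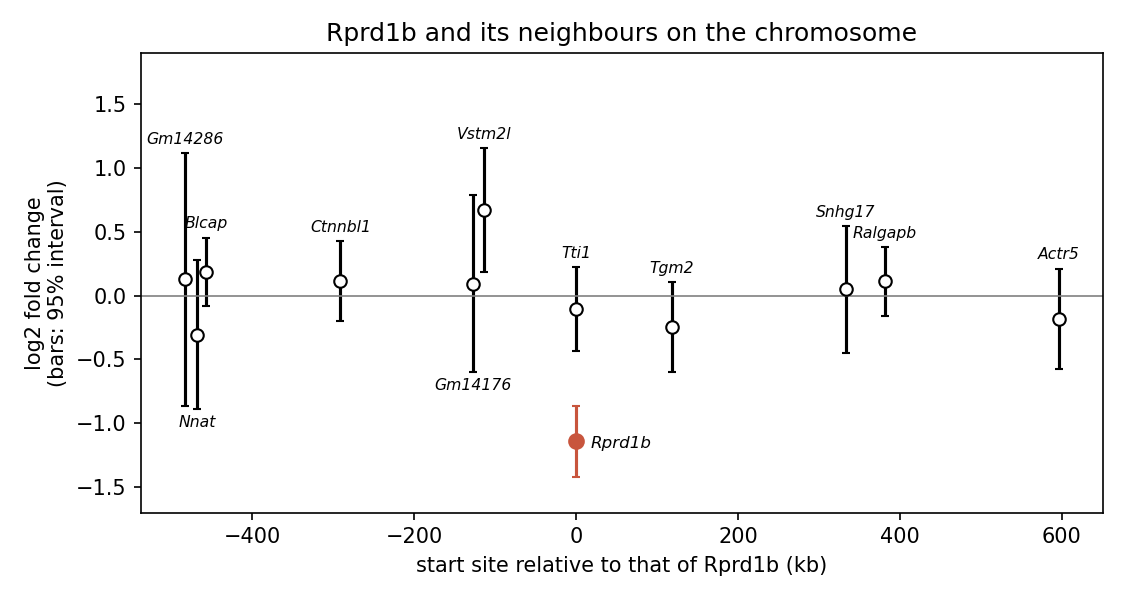
Log2 fold change, Vil-CREPTKO over WT, with 95% intervals, of Rprd1b (red) and of the tested neighbours with a mean of at least 1 CPM in WT, against the distance of their start site from that of Rprd1b. Going outward from Rprd1b at -1.14, the starts of Tti1, Vstm2l and Tgm2 come first, with values of -0.11, 0.67 and -0.25.

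The same question of overlapping genes was put to all 7. Of 15 annotated genes that share bases with one of them, 12 were in the table and 7 were tested. One of these was called, beside 2.71% of all genes tested in either direction. The called gene was 6430511E19Rik (ENSMUSG00000102555, chr7:92639949-92643783, plus strand), a transcript that GENCODE lists as still unproven, at the 3′ end of Pcf11 on the other strand. It shares 241 bases with exons of Pcf11 and runs 3594 bases past its annotated end. It had 100 and 108 counts in the WT pair, then 10 and 5 in the Vil-CREPTKO pair, and fell from 2.08 ± 0.166 CPM to 0.166 ± 0.0907 CPM (SD, n = 2). Its log2 fold change was -3.64 (SE 0.52, 95% interval -4.83 to -2.46, edgeR adjusted p 0.010). Pcf11 itself had 4064 and 3636 counts in WT and a log2 fold change of 0.23, so the values of these overlapping genes had opposite signs.

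The other overlapping genes did not pass. Sod1, beside Scaf4, had a log2 fold change of 0.29 (edgeR adjusted p 0.493), Gm17815 in Rprd2 0.32 (0.903), Gm26944 in Pcf11 -0.14 (0.938) and Glmn beside Rpap2 0.10 (0.923). Gm20412 in Rprd1b had 0 counts in every library, which allows up to 3 counts each. Gm43436 and Gm26361 in Rprd2, and A930041C12Rik and Gm26692 in Rpap2, had between 0 and 16 counts. Gm49798, Gm46578 and Gm49797, which overlap Scaf8, were not analysed here.

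The genes whose profile over the 4 libraries was most like that of Rprd1b were found by the root mean square difference of mean-centred log2 CPM among the 12170 tested genes whose mean log2 CPM was 1 or more. They were Armcx3 (0.0243), Med16, which encodes a subunit of Mediator (0.0287), Tinf2, which encodes the telomere protein TIN2 (0.0401), the unnamed locus Novel00316 (0.0432) and the pseudogene Gm15519 (0.0436). Med16 was at 32.6 and 34.0 CPM in the WT pair, then 14.9 and 15.8 CPM in the Vil-CREPTKO pair. Rprd1a ranked at place 340, with a difference of 0.232. With 4 libraries in 2 groups, such likeness mostly restates the difference between the groups.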

How the data were processed

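RNA-seq libraries of crypts from WT and Vil-CREPTKO mice (2 each) were used, grouped by the sample titles. The authors deposited whole-number read counts per gene, with 1 column per library. Per their methods and processing notes, CASAVA 1.8, Bowtie2 against transcripts of GRCm38.p6, and RSEM were used; the strand setting is not given in the sources used here. Totals were 47241049 to 49369315 counts, and a count of 0 allows at most 3 counts, or 0.0588 to 0.069 CPM, for counting error only.

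Tests were run with edgeR 4.0.16 in R 4.3.3: filterByExpr, TMM scaling, and a two-sided quasi-likelihood test with the group as its term, adjusted by Benjamini-Hochberg over 17504 genes. A gene was called at an adjusted p under 0.05. Standard errors are the log2 fold change over the square root of F, and 95% intervals use the t distribution of the fit. The test was checked on simulated counts. With 2 libraries per group, p-values rest on the spread between these libraries, which the study calls biological replicates. The fit moderates the spread of each gene toward that of all genes tested. The common biological coefficient of variation was 0.188. The chi-square statistic per gene was 49.8 between the WT libraries and 70.1 between the Vil-CREPTKO libraries, so neither pair was 1 library deposited again.

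Symbols, coordinates and exon lengths came from GENCODE M21, in which 485 of 53845 entries had no gene. Coding sequences were translated and aligned with Biopython 1.88 (local, BLOSUM62), and the promoter sequence came from RefSeq. Named genes were the 7 genes, the called genes of each list or else its 2 furthest, the nearest and furthest tested neighbours, all overlapping genes, the 5 most like Rprd1b in profile, Vil1 and cell type markers. Members and lists were chosen with earlier results of these data known. One list gene is not reported here and was left out of the counts of its list. Alternatives were DESeq2 1.42.0, RLE, upper-quartile and library-size scaling, other filters (none, or at least 10 counts), a likelihood ratio test, a replicate block, a loess correction for GC content and length, leaving out mitochondrial genes, and leaving out each library.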

Additional observations from a re-analysis of the deposited data

How the results depend on the processing

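Rprd1b passed in 14 of 14 alternatives, with log2 fold changes from -1.23 to -0.99. Rprd1a, not called at -0.96, passed with DESeq2 (-0.94), the likelihood ratio test (-0.96), no filter on low counts (-0.96) and library-size scaling (-1.06), and its range with a library left out was -1.22 to -0.74. The number of the 7 genes called was then 2 in place of 1 under each of these settings, and 1 to 2 with a library left out. The 71 genes of the CTD lists gave 1 call, 0 after correction for GC content and length, and 0 with any library left out. The neighbours of Rprd1b gave 0 calls, and 1 (2010009K17Rik) under the likelihood ratio test, no filter or library-size scaling. The summed level of Rprd1a and Rprd1b was 43.5% of WT with library-size scaling, and 45.8% to 46.8% with a library left out. Signs turned where the change was near 0: Rprd2 was at 0.013 after correction for GC content and length and at -0.21 to 0.00054 with a library left out, Scaf4 at -0.012 and Scaf8 at -0.055 with library-size scaling, and with a library left out Scaf4 ranged from -0.025 to 0.17, Scaf8 from -0.084 to 0.13 and Rpap2 from -0.13 to 0.43. The causes were not tested. Pcf11 stayed over 0 and not called in all 14.

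The GC and length correction moved the median log2 fold change of all genes by 0.15, to 0.14, so its values are best read against that shift. Over all genes the number called was 474, with 84.4% lower, and it was 808 with DESeq2, 965 with the likelihood ratio test, 1233 without a filter and 267 after the GC and length correction, where 64.8% were lower.

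No pairing by replicate number was seen over all genes: the correlation of the differences between replicates 1 and 2 in the 2 groups was 0.028. This single value cannot exclude that the libraries were paired. With a replicate block, Rprd1a was at -0.97 (edgeR adjusted p 0.0316), 2 of the 7 genes were called, and 558 of all genes.

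Among the 7 genes Rpap2 had the fewest counts in WT. The overlapping genes Gm17815 and 2010009K17Rik had at most 20 counts in a library. With 2 libraries a group, changes smaller than the intervals given could not be detected, and whole-gene counts do not show exon 3, isoforms or protein.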
